A study of Mus musculus with 23 samples.

Results

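The nuclear genes that encode the subunits of the mitochondrial respiratory chain and of ATP synthase were followed in left ventricles of mice of the inbred strain FVB that had breathed e-cigarette aerosol or filtered air. Genes were chosen by symbol, as those beginning with Ndufa, Ndufb, Ndufc, Ndufs or Ndufv but not Ndufaf, the 4 Sdh genes, Uqcr genes, Cyc1, Cox4 to Cox8 and Atp5 genes, with 1 pseudogene left out. This gave 83 of 49315 genes in the count table, 38 of complex I, 4 of complex II, 9 of complex III, 16 of complex IV and 16 of complex V. The complex was read from the start of the symbol, so Ndufa4 and Ndufa4l2 count under complex I throughout. Choice by symbol does not show that each gene, such as Atp5s or Cox7a2l, encodes a structural part of its complex. All 83 passed the filter on low counts, as did 15500 genes in all.

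Mice that started exposure at 3 weeks of age breathed aerosol of vehicle with nicotine (4 libraries), aerosol of vehicle alone (3 libraries) or filtered air (4 libraries). Mice that started at 3 months of age fell into the same 3 arms with 4 libraries each. Every group was exposed for 4 hours a day, 5 days a week, over 3 months, so the starting age cannot be told apart from the age at the end. The comparisons address how the aerosol, with or without nicotine, alters ventricular transcripts and whether the starting age matters. Library numbers are those in the sample titles. Nothing in the labels says that each library is a separate animal, so the spread behind the p-values may be technical, and no sex, batch or nicotine dose is given.

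The respiratory chain passes electrons from NADH and succinate to oxygen through complexes I to IV, and complex V, the ATP synthase, uses the resulting proton gradient to make ATP. Most subunits are encoded in the nucleus, made in the cytosol and imported, and a few core subunits are encoded in mitochondrial DNA. Heart muscle depends on this pathway for nearly all of its ATP, and it uses muscle forms of several complex IV subunits. NRF1 and the ETS factor GABP (also called NRF2) are long-known activators of these genes.

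Promoter sequence was on hand for 66 of the 83 genes, as the 250 bases before the RefSeq gene start on GRCm38.p6. The NRF1 motif (GCGCA, any base, GCGC), read on either strand, lay in 13 of these 66 windows (19.7%), against 4.23% of the windows of 27025 genes. The ETS motif CCGGAAG lay in 12 (18.2%) against 7.83%, the ERR motif TCAAGGTCA in 1 (1.52%) against 0.422%, and a YY1 motif in 1 (1.52%) against 0.359%. A match is a run of letters and not a shown site. Of the subunit genes that were higher in 3-week vehicle than in 3-week air ventricles, some keep a motif outside annotated exons. Ndufs5 and Atp5h, with an NRF1 motif each, are among them but are not printed. The stretches below are those of 4 others. They are printed 5′ to 3′ in the direction of the gene, with the motif in capitals (NRF1 in Ndufb4, ETS in the other 3).
Atp5e (chr2:174464106-174464351, minus strand): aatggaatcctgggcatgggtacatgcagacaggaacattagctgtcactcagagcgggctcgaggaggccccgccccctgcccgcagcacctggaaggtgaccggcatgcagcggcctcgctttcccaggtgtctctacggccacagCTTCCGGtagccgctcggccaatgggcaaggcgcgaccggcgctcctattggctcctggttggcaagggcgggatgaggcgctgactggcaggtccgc
Ndufb4 (chr16:37654454-37654618, minus strand): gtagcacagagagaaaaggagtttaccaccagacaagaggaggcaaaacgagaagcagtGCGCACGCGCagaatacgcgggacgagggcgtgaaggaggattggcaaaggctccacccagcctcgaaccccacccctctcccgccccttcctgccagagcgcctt
Uqcr11 (chr10:80406831-80407071, minus strand): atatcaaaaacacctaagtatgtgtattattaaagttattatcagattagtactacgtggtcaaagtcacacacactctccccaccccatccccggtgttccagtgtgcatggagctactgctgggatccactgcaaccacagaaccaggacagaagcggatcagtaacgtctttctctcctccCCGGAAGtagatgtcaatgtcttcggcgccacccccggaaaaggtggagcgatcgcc
Uqcrh (chr4:116075072-116075268, minus strand): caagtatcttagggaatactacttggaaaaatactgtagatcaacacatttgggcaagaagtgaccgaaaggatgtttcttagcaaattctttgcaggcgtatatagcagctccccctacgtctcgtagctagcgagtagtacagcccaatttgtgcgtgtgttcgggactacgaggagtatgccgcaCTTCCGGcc

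Ventricular cardiomyocyte markers (Myl2, Myh6, Tnnt2, Tnni3, Actc1, Pln and Myl3) summed to 80400 to 89700 CPM (counts scaled to library size) in the 23 libraries, while skeletal muscle markers summed to at most 3.46 CPM and Ucp1, the defining gene of brown fat, had 0 to 2 counts. Marker sums are scaled by the total counts alone, while levels of subunit genes are scaled by the total and by a TMM factor of 0.93 to 1.08, which corrects for differences in composition. Library totals were 12297955 to 17821550 counts. The biological coefficient of variation was 0.236 over the 3-week libraries, 0.106 over the 3-month libraries and 0.179 over all. In bulk tissue, fewer cells of a type and less RNA per cell cannot be told apart.

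Subunit transcripts were abundant and uneven. Levels between genes are given as CPM per kilobase of the principal transcript, the annotated transcript judged to carry the main protein, averaged over 23 libraries. The median of the 83 genes was 615 CPM per kb, against 5.37 CPM per kb for all genes tested, and 82 of the 83 lay above that median. Cox4i1, the common form of a regulatory subunit of cytochrome c oxidase, stood highest at 3730 CPM per kb. It was followed by Atp5b, the catalytic beta subunit of ATP synthase, at 3100 CPM per kb, and by Atp5g3 at 2260 and Atp5h at 2200 CPM per kb. By complex, medians were 430 CPM per kb in complex I, 412 in II, 767 in III, 863 in IV and 944 in V. The 4 lowest genes were Ndufa4l2 (18.2 CPM per kb), Cox4i2 (15.7), Atp5s (13.7) and Cox6b2 (2.2), the last known as the testis form of its subunit.

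**Figure D1:**
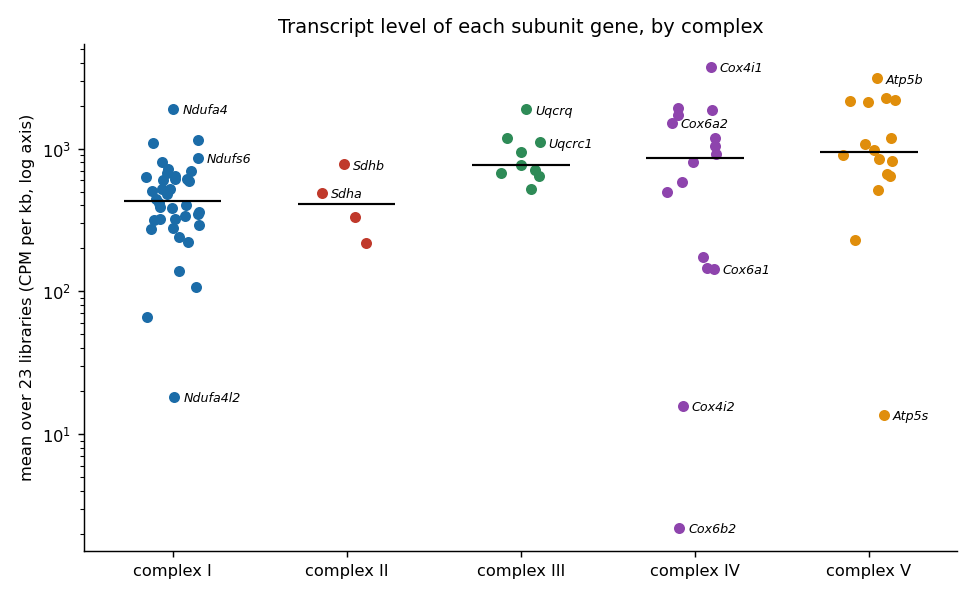
Mean level of each of the 83 subunit genes over 23 libraries, in CPM per kilobase of principal transcript on a log axis, by complex; each point is a gene and each bar the median of a complex. Cox4i1 (3730) and Atp5b (3100) stand at the top and Cox6b2 (2.2) at the bottom.

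Where a subunit has several forms, the ventricle held mainly one of them, except for the c subunit of ATP synthase. Per kilobase, Cox6a2, the heart and skeletal muscle form, was 10.5 times Cox6a1, and Cox8b was 9.75 times Cox8a. Cox7a1, likewise the muscle form, was 3.72 times Cox7a2. Cox4i1 was 239 times Cox4i2, the form known from lung, and Ndufa4, named for complex I and now known as part of complex IV, was 105 times Ndufa4l2. Of the 3 genes for the c subunit of ATP synthase, Atp5g1 was 9.24 times Atp5g2 and 0.949 times Atp5g3. Atp5g1 has principal transcripts of 596 and 4715 nt, and the shorter was used, so its ratios depend on that choice. The log2 ratio of Cox6a1 to Cox6a2 ranged from -3.59 to -2.99 over all 23 libraries, and that of Cox7a2 to Cox7a1 from -2.01 to -1.65, so in no library did the order of these forms turn round. The ratio of Cox8a to Cox8b was -3.46 ± 0.20 in 3-week vehicle (SD, n = 3) and -3.13 ± 0.20 in 3-week air (n = 4) on the log2 scale, and -3.39 ± 0.06 in 3-month vehicle against -3.18 ± 0.06 in 3-month air (n = 4 each); these ratios were not tested.

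The share of all counts that fell on the 83 genes differed most among the 3-week libraries. It was 7.07, 5.65, 6.63 and 5.35% in 3-week nicotine libraries 2, 3, 5 and 6, 8.28, 7.01 and 5.48% in 3-week vehicle libraries 1, 2 and 4, and 5.05, 5.95, 5.94 and 5.87% in 3-week air libraries 1, 2, 4 and 5. Nicotine libraries 2 and 5 and vehicle libraries 1 and 2 lay above every air library, and the other nicotine and vehicle libraries lay within the air range. Among the 3-month libraries the share was 4.91 to 5.47% in nicotine, 5.77 to 6.06% in vehicle and 5.09 to 5.35% in air, and the 4 vehicle libraries lay above all 8 others. Of the 83 genes, 65 had their highest level in 3-week vehicle library 1, and 36 had their lowest in 3-month nicotine library 3. Such counts were not made over all genes, so they are not shown to be a trait of the subunit genes.

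**Figure D2:**
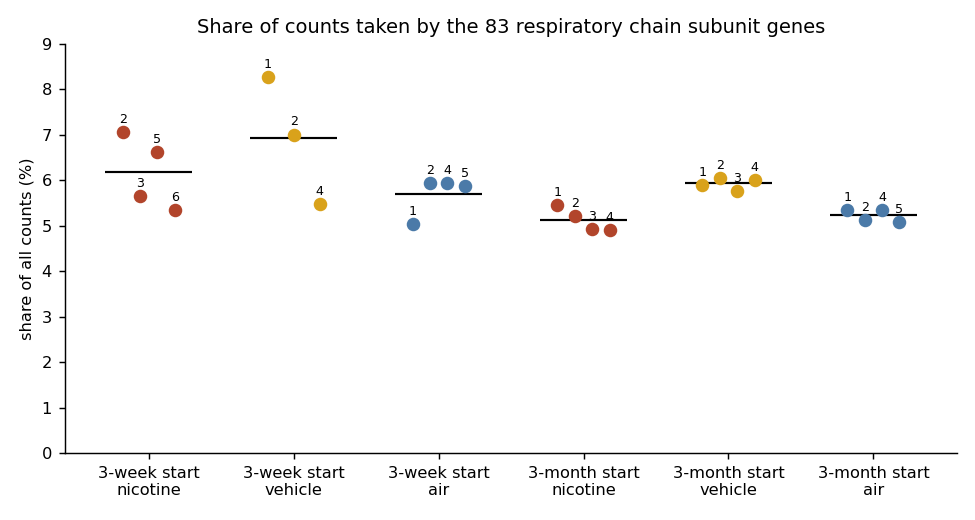
Share of all counts (%) that fell on the 83 subunit genes in each library, by starting age and exposure; points are libraries with their replicate numbers and bars are group means. In 3-week vehicle, library 1 (8.28%) and library 2 (7.01%) stand apart from library 4 (5.48%), while the 3-month vehicle libraries lie together at 5.77 to 6.06%.

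When vehicle aerosol was breathed from a 3-week start, many small subunits of complexes I, III, IV and V were higher than in air controls, while Sdha, Sdhd, Uqcrc2 and Atp5a1 were lower. Of the 83 genes, 39 passed the threshold (edgeR adjusted p under 0.05), 35 higher and 4 lower. Among all genes tested, 9.27% passed as higher and 6.92% as lower. The median log2 fold change was 0.38 over the 83 genes and 0.02 over all genes tested, and 70 of the 83 were positive. Complex I had 20 of 38 higher and none lower, complex II none higher and 2 of 4 lower, complex III 4 higher and 1 lower of 9, complex IV 7 of 16 higher, and complex V 4 higher and 1 lower of 16. DESeq2 called 42 (22.1% of all genes). The edgeR and DESeq2 fits hold all 23 libraries, so the narrower spread of the 3-month libraries enters these calls. The biological coefficient of variation was 0.106 over the 3-month and 0.236 over the 3-week libraries. In an edgeR fit of the compared groups alone, 0 of the 83 genes passed (0% of all genes), with a smallest adjusted p of 0.306 among the 83.

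The complex I genes with the smallest p were accessory subunits, which surround the catalytic core. Ndufs6, needed for a late step of complex I assembly, read 1060, 817 and 405 CPM in vehicle libraries 1, 2 and 4, against 387, 457, 426 and 475 CPM in air libraries 1, 2, 4 and 5. Libraries 1 and 2 lay above every air library, and library 4 lay among them. The change was 0.80 ± 0.20 log2 (SE, adjusted p = 0.0231). Ndufa2 (0.82), Ndufa5 (0.79), Ndufa1 (0.78), Ndufa13 (0.77), Ndufb7 (0.79) and Ndufb9 (0.64) also rose, with adjusted p = 0.0241 to 0.0279. Ndufs1, the largest core subunit, which carries iron-sulfur clusters, was at 319, 336 and 737 CPM in vehicle against 892, 654, 655 and 746 CPM in air, and missed the threshold (-0.67 log2, adjusted p = 0.0524). Ndufv1, the subunit that binds NADH, had a log2 fold change of 0.15 (adjusted p = 0.307).

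Complex II links the chain to the tricarboxylic acid cycle. Sdhd, a membrane anchor of complex II, read 313, 296 and 401 CPM in vehicle libraries against 475, 411, 424 and 453 CPM in air libraries. Every vehicle library lay under every air library, and Sdhd was the 1 subunit gene of which this held. It fell by 0.39 ± 0.10 log2 (adjusted p = 0.0241). None lay wholly above, against 5.06% of all genes above and 4.19% below. Sdha, the flavoprotein that oxidises succinate, read 811, 737 and 1430 CPM in vehicle against 1680, 1320, 1350 and 1550 CPM in air (-0.57 ± 0.18, adjusted p = 0.0404), and vehicle library 4 again lay within the air range. Sdhb, the iron-sulfur subunit, did not pass (0.23 log2, adjusted p = 0.137). Across all complexes, 7 of 23 core subunits and tissue forms followed in every comparison passed. Of the tissue forms Cox7a2 rose by 0.58 log2 and its muscle form Cox7a1 by 0.50 (adjusted p = 0.029 and 0.0441), Cox8b by 0.63 (0.0313) and Ndufa4 by 0.55 (0.0362).

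In complex III, Uqcrc2, a core protein, was at 600, 555 and 977 CPM in vehicle against 1120, 915, 970 and 1080 CPM in air (-0.52 ± 0.14, adjusted p = 0.0266). Uqcr11 read 1070, 836 and 418 CPM in vehicle and 430, 500, 496 and 522 CPM in air, and rose by 0.67 log2 (adjusted p = 0.0342). In complex IV, Cox4i1 read 4900, 3800 and 2420 CPM in vehicle and 2300, 2560, 2570 and 2820 CPM in air (0.53 log2, adjusted p = 0.0383). Both genes were high in vehicle libraries 1 and 2 only. In complex V, Atp5e, the small epsilon subunit, was at 1020, 883 and 406 CPM in vehicle against 378, 459, 446 and 467 CPM in air (0.82 ± 0.20, adjusted p = 0.0236). Atp5k and Atp5j2, of the membrane sector, rose by 0.68 and 0.70 log2. Atp5a1, the alpha subunit of the catalytic head, averaged 4420 ± 710 CPM in vehicle (n = 3) and 5570 ± 410 CPM in air (n = 4) and fell by 0.33 log2 (adjusted p = 0.0342), whereas Atp5b, its partner, did not pass (-0.13 log2, adjusted p = 0.237). Ndufs6, Ndufa2, Ndufa13, Ndufb9, Ndufs1, Uqcrc2, Cox4i1 and Atp5a1 share exon bases with another gene, as do 30 of the 83, and the strand setting of the counting is not given.

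Vehicle libraries 1 and 2 carried this pattern. Of the 83 genes, 71 were above all air libraries in vehicle library 1 and 62 in library 2, but 0 in library 4, where 44 were below all air libraries. Such counts were not made over all genes, so they are not shown to be particular to the subunit genes. With libraries 1 and 2 left out, 0 passed and the median turned to -0.11 log2, the lone library left being assumed to vary like the other groups. With air libraries 1 and 5 left out, 0 passed at a median of 0.36 log2. Fitting the compared groups alone gave 0 passing, with 31 at an unadjusted p under 0.05, a count not made over all genes. In each of these 3 fits 0% of all genes passed, so these zeros are not particular to the subunit genes. Leaving out 1 library at a time gave 0 (without vehicle 1 or 2, or air 1 or 5) to 66 (without vehicle 4, where 44% of all genes passed). Erythroid markers summed to 2470, 495 and 524 CPM in vehicle libraries 1, 2 and 4, against 543 to 1010 CPM in air, atrial markers to 118, 573 and 152 CPM in vehicle against 138 to 361 CPM in air, and noncoding genes took 2.55, 2.16 and 1.41% of counts in vehicle against 1.11 to 1.49% in air. In the same order, smooth muscle markers summed to 214, 444 and 224 CPM, against 221 to 271 CPM in air. Fibroblast markers summed to 647, 951 and 769 CPM, against 608 to 782 CPM in air. Endothelial markers summed to 1010, 1430 and 1070 CPM, against 721 to 1370 CPM in air. Mitochondrially encoded genes took 7.06% of counts in vehicle library 1, below the 8.35 to 8.98% in air. Vehicle libraries 2 and 4 lay above that range. Of the 7 ventricular markers Myl2, Tnni3 and Myl3 rose and Actc1 and Myh6 fell in this contrast. The part of these differences in the result was not tested.

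**Figure D3:**
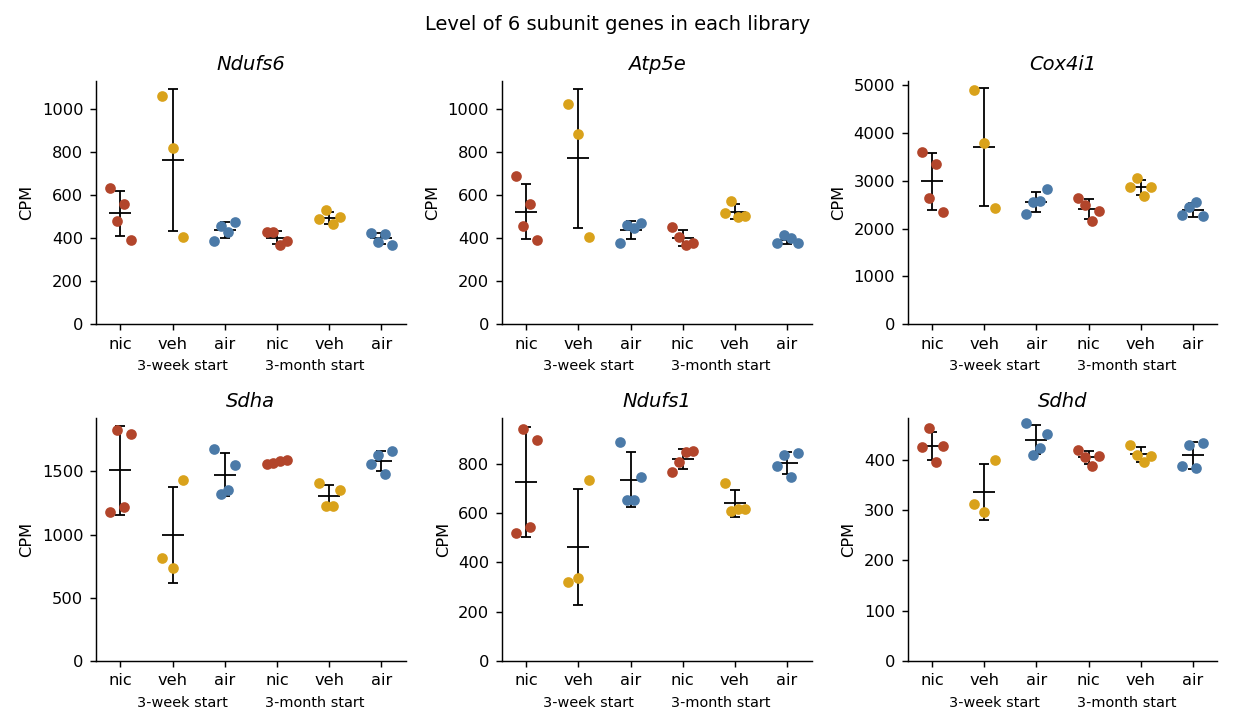
CPM of Ndufs6, Atp5e, Cox4i1, Sdha, Ndufs1 and Sdhd in each library, for nicotine (nic), vehicle (veh) and air at each starting age; points are libraries, with mean and SD. In 3-week vehicle 2 libraries sit high for Ndufs6 (1060 and 817 CPM) and low for Sdha (811 and 737 CPM) and the third sits with air, while the 3-month vehicle libraries lie close together.

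The change followed transcript length in these libraries, and subunit transcripts are short (median 727 nt, range 315 to 3171 nt, against a median of 2387 nt for all genes tested). Among subunit transcripts under 600 nt (30 genes) the median vehicle against air log2 fold change at the 3-week start was 0.57, against 0.45 for all genes of that length. It was 0.45 for 26 genes from 600 to under 1000 nt (0.26 for all genes) and 0.08 for 22 genes from 1000 to under 2000 nt (0.08 for all genes). For the 5 genes of 2000 nt or more it was -0.33, against -0.08 for all genes. Across the 83 genes the rank correlation of fold change with length was -0.66, a description over genes that share libraries. Across genes of a library, the rank correlation of deviation from the mean with transcript length was -0.258, -0.292 and 0.248 in vehicle libraries 1, 2 and 4. In 3-week air libraries it was -0.04 to 0.291. With an offset for length in the fit, based on the shortest principal transcript, 18 of the 83 passed, 13 higher and 5 lower, of which 17 had passed without it, at a median of 0.12 log2, where 15.9% of all genes passed in either direction. The longest such transcript also gave 18 (16.1% of all genes), at a median of 0.07 log2. Passing without an offset and with each of 3 length measures were 10 higher genes (Atp5e, Atp5j2, Cox7a2l, Ndufa1, Ndufa2, Ndufa5, Ndufa13, Ndufb7, Ndufs4 and Ndufs6) and the 4 lower genes Atp5a1, Sdha, Sdhd and Uqcrc2. The share of all genes that passed in every one of these fits was not counted.

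**Figure D4:**
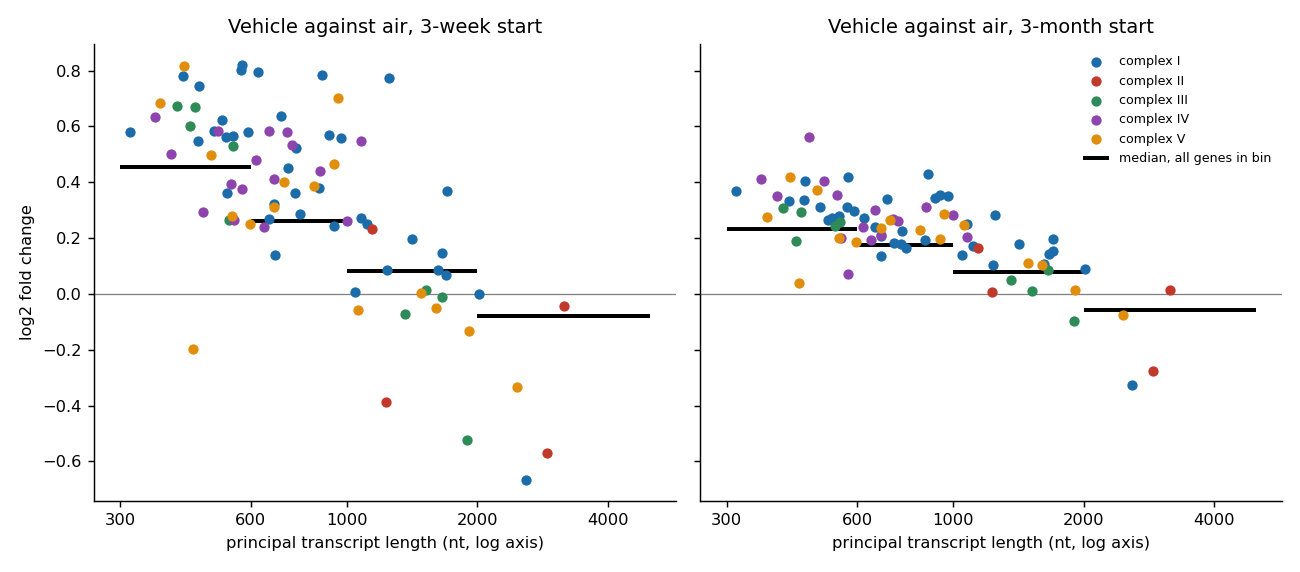
Log2 fold change of vehicle against air for each of the 83 subunit genes (points, coloured by complex) against principal transcript length in nt on a log axis, at the 3-week start (left) and 3-month start (right); black bars are the median of all genes tested in each length class. Short transcripts lie highest in both panels, with medians of 0.57 (left) and 0.30 (right) for subunit genes under 600 nt.

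Genes that work beside the chain were followed in the same contrast, in which 9.27% of all genes passed as higher and 6.92% as lower. Of 14 genes of the tricarboxylic acid cycle, 9 fell and none rose, at a median of -0.44 log2. They include Idh3a (-0.60, adjusted p = 0.0275) and Cs, citrate synthase (-0.65, 0.0293). This list has a median transcript length of 2470 nt. Among 12 regulators of mitochondrial genes 2 fell, Tfam, which packages and transcribes mitochondrial DNA (-0.43, adjusted p = 0.0383), and Esrrb (-0.73, 0.0396). Of 13 genes of cytochrome c and coenzyme Q synthesis, 3 fell (Coq5, Coq9 and Coq10b). Assembly factors moved in both directions. For complex I 2 of 15 rose (Ndufaf2 and Ndufaf8) and 4 fell (Ndufaf1, Ndufaf7, Foxred1 and Acad9). For complex III 2 of 6 rose and 1 fell, for complex II 1 of 4 rose (Sdhaf1, 0.82), and for complex IV 1 of 20 rose (Cox17, a copper chaperone, 0.69). Of 4 genes of ATP synthase assembly and inhibition, Atpif1, which encodes the inhibitor of ATP hydrolysis, rose by 0.66 log2 and Tmem70 fell by 0.34. Of 8 genes of ATP export and energy transfer 1 fell, Vdac1 (-0.51). Of the 13 subunits encoded in mitochondrial DNA 2 rose, mt-Nd6 (0.77, adjusted p = 0.0141) and mt-Nd4 (0.40, 0.0311).

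With nicotine added to the vehicle from 3 weeks of age, no subunit gene passed against air, nor did any reach an unadjusted p under 0.05 in edgeR, and DESeq2 called 0 as well (3.06% of all genes). Among all genes 0.813% passed, and 12.8% had an unadjusted p under 0.05. The log2 fold change was positive for 78 of 83 genes, with a median of 0.15 and a range of -0.04 to 0.26. The median was 0.06 without nicotine library 2 and 0.23 without nicotine library 6. The smallest p belonged to Cox7b, a small complex IV subunit, at 732, 605, 669 and 535 CPM in nicotine libraries 2, 3, 5 and 6 against 505, 557, 550 and 577 CPM in air libraries (0.21 ± 0.11, adjusted p = 0.45). Sdhb was at 964 ± 83.9 CPM in nicotine and 841 ± 55.6 CPM in air (n = 4 each, 0.20 log2, adjusted p = 0.452), and Ndufa12 at 258 ± 30.4 CPM in nicotine and 228 ± 17.9 CPM in air (0.18, 0.516). On the negative side Sdhd, Cox8a and Uqcrc2 had changes of -0.04 log2 each (adjusted p = 0.888 to 0.933).

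The nicotine libraries also fell into unlike pairs for these genes. In library 2, 75 of the 83 genes were above all air libraries, and in library 5, 66 were. In library 6 only 2 were and 45 were below all air libraries, and library 3 had 25 above. The same counts over all genes were not made. Ndufs1 shows the reverse order, at 521, 944, 546 and 900 CPM in libraries 2, 3, 5 and 6. In the same order, the rank correlation of deviation from the mean with transcript length across genes was -0.373, 0.114, -0.315 and 0.301. Noncoding genes took 1.89, 3.11, 1.73 and 1.35% of counts, against 1.11 to 1.49% in air. Erythroid markers summed to 1140 to 1380 CPM in nicotine against 543 to 1010 CPM in air. Mitochondrially encoded genes took 9.09, 9.84, 10.1 and 10.8% of counts in nicotine libraries 2, 3, 5 and 6, against 8.35 to 8.98% in air. Smooth muscle markers summed to 238, 155, 639 and 233 CPM in these libraries, against 221 to 271 CPM in air. Macrophage markers summed to 256, 176, 203 and 151 CPM, against 209 to 246 CPM in air. The part of these differences was not tested. With the shortest transcript offset the median was 0.04 log2. The authors' deposited table for this comparison lists all 83 genes, with 0 at an adjusted p under 0.05 and a median log2 fold change of 0.133, where 138 of its 14217 genes (0.971%) are under that threshold. Of the lists, subunits encoded in mitochondrial DNA had 1 of 13 passing, mt-Nd6 (0.61 log2, adjusted p = 0.0478), and all 13 were positive, while none of the other lists of the pathway had a gene past the threshold.

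Nicotine against vehicle at the 3-week start shares the vehicle libraries with the comparison of vehicle and air, and 0 of 83 genes passed in edgeR (0% of all genes). An unadjusted p under 0.05 was reached by 37 (44.6%), against 19.3% of all genes. The median was -0.25 log2 and 62 of 83 were negative. Sdhd, at 429 ± 27.7 CPM in nicotine (n = 4) and 337 ± 56.5 CPM in vehicle (n = 3), had the smallest p (0.35 log2, adjusted p = 0.14). Uqcrc2 (0.49, adjusted p = 0.14) and Atp5a1 (0.33, 0.143) came next among positive changes, and Ndufa5 (-0.60, 0.162), Cox7a2l (-0.44, 0.166) and Ndufs6 (-0.57, 0.171) had the smallest p among negative ones. DESeq2 called 2 (1.19% of all genes), Sdhd (0.34) and Atp5a1 (0.33), both higher. Without vehicle libraries 1 and 2 the median was 0.24 log2 with 0 passing, and without vehicle library 4 it was -0.45 with 60 passing (30.3% of all genes).

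In mice that started at 3 months, the vehicle libraries resembled one another, and most subunit genes were higher in them than in air libraries without passing the test over all libraries. The 4 vehicle libraries lay above all 4 air libraries for 53 of the 83 genes and below them for 2, Sdha and Ndufs1, where 8.52% of all genes lay above and 11.6% below. The log2 fold change was positive for 79 genes, with a median of 0.24 against 0.02 over all genes. None passed in the fit over all 23 libraries (0% of all genes), in which the wider spread of the 3-week libraries enters. In that fit 18 of the 83 (21.7%) had an unadjusted p under 0.05, against 14.2% of all genes. DESeq2 also called 0 (0.419% of all genes). In a fit of the 12 3-month libraries alone, chosen after seeing the data, 56 passed, 54 higher and 2 lower, where 18.7% of all genes passed in either direction. The 2 compared groups alone gave 55 (53 higher and 2 lower, with 18.4% of all genes). Noncoding genes took 1.49 to 1.66% of counts in 3-month vehicle, against 1.23 to 1.46% in air and 1.21 to 1.3% in nicotine. Erythroid markers summed to 645 to 924 CPM in 3-month vehicle, against 304 to 696 CPM in air and 385 to 540 CPM in nicotine, and all 4 tested were positive against air (median 0.50 log2) with none passing. Their part in the subunit differences was not tested.

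Atp5c1, the gamma subunit that turns inside the ATP synthase head, read 956, 997, 891 and 876 CPM in 3-month vehicle libraries 1 to 4, against 764, 812, 792 and 770 CPM in air libraries 1, 2, 4 and 5. All vehicle libraries were higher, yet the gene missed the threshold over all libraries (0.25 ± 0.08 log2, adjusted p = 0.293). Cox7c, of complex IV, read 534, 563, 508 and 507 CPM in vehicle against 397, 422, 429 and 404 CPM in air (0.35, adjusted p = 0.312), and Atp5h 1160, 1230, 1080 and 1080 CPM in vehicle against 837, 889, 944 and 844 CPM in air (0.37, adjusted p = 0.317). In the fit of 3-month libraries alone the smallest adjusted p was that of Cox8b, at 657, 739, 632 and 683 CPM in vehicle against 514, 531, 494 and 500 CPM in air (0.42 log2, adjusted p = 0.001).

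Sdha and Ndufs1 again went the other way. Sdha was at 1410, 1230, 1230 and 1350 CPM in vehicle against 1560, 1630, 1480 and 1660 CPM in air, without overlap (-0.28 ± 0.17 log2 over all libraries, adjusted p = 0.427, and -0.27, adjusted p = 0.00563, over the 3-month libraries). Ndufs1 was at 723, 609, 616 and 618 CPM in vehicle against 792, 838, 747 and 844 CPM in air, also without overlap (-0.33 ± 0.21, adjusted p = 0.456, and -0.32, adjusted p = 0.00432, over the 3-month libraries). In 3-week vehicle libraries 1 and 2 both genes had also lain below every 3-week air library. Atp5a1 averaged 5230 ± 303 CPM in vehicle and 5510 ± 210 CPM in air (n = 4 each) and did not pass in either fit.

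Length classes ordered the 3-month change as well. The median was 0.30 log2 for the 30 genes under 600 nt (0.23 for all such genes), 0.24 from 600 to under 1000 nt (0.18), 0.14 from 1000 to under 2000 nt (0.08) and -0.08 for 2000 nt or more (-0.06). Across genes of a library, the rank correlation of deviation from the mean with transcript length was -0.31 to -0.16 in 3-month vehicle and 0.11 to 0.37 in 3-month air. With the offset of the shortest principal transcript, the median of the 83 genes over all libraries was 0.08, and in the 3-month libraries alone 14 passed, 12 higher and 2 lower, where 13.6% of all genes passed. Without an offset and with each of the 3 length measures, the fits of the 3-month libraries shared 4 higher genes, Cox6c, Ndufa2, Ndufa5 and Ndufb2, and the 2 lower genes Sdha and Ndufs1. How many of all genes these fits shared was not counted. Ndufb2 has principal transcripts of 455 and 4371 nt, so its offset is uncertain. Ndufa5, for example, had 386, 427, 367 and 352 CPM in vehicle and 312, 280, 288 and 258 CPM in air (0.43 log2 without and 0.29 with the offset, adjusted p = 0.00247 and 0.00827). The part of transcript length and of RNA or library quality in these differences was not tested beyond these offsets.

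**Figure D5:**
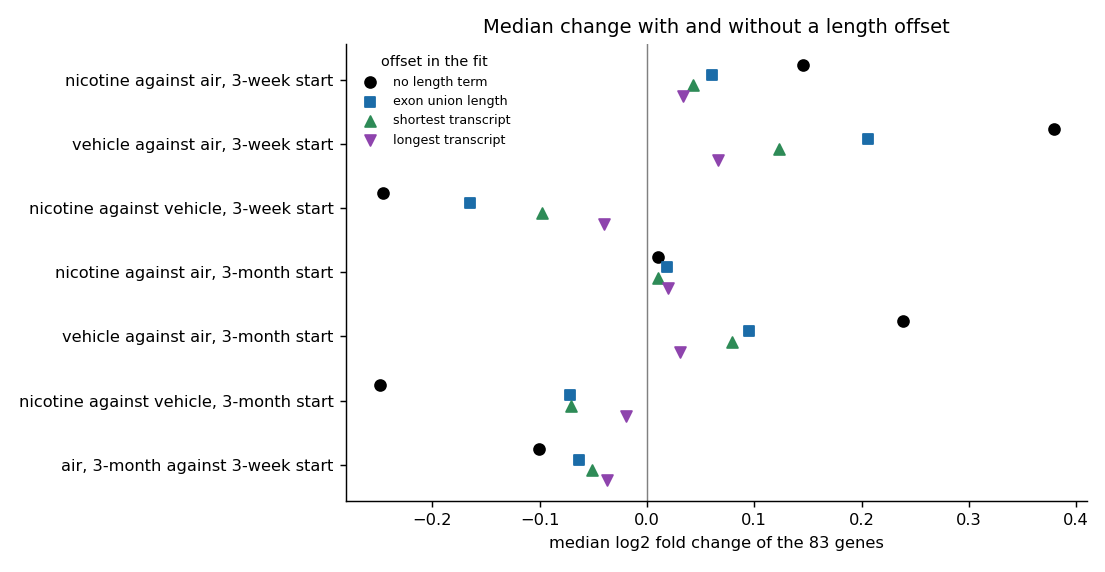
Median log2 fold change of the 83 subunit genes in each comparison from the fit of all 23 libraries, without a length term and with an offset for the union of exons, the shortest or the longest principal transcript. At the 3-week start the vehicle against air median is 0.38 without and 0.12 with the shortest transcript offset, and at the 3-month start 0.24 and 0.08.

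With nicotine from 3 months of age, no subunit gene passed against air in edgeR (0% of all genes) or in DESeq2 (0.0129% of all genes). None reached an unadjusted p under 0.05 in edgeR, where 2.63% of all genes did. The log2 fold changes lay between -0.13 and 0.14 with a median of 0.01, and 51 of 83 were positive. This direction rested on single libraries, since 26 were positive without nicotine library 1, 30 without nicotine library 2 and 35 without air library 5, with the median turning negative in each. Atp5c1 had the smallest p, at 908, 882, 812 and 856 CPM in nicotine libraries 1 to 4 against 764, 812, 792 and 770 CPM in air (0.14 ± 0.08, adjusted p = 1). Nicotine library 3 and air library 2 both read 812 CPM, so the groups touched. Atp5s (0.10) and Cox7a1 (0.13) came next among positive changes, and Cox6a1 (-0.13), Ndufb3 (-0.11) and Ndufc2 (-0.07) had the smallest p among negative ones, all at an adjusted p of 1. The authors' deposited table lists 82 of the genes with 0 at an adjusted p under 0.05 and a median log2 fold change of 0.002, where 0.307% of its 13991 genes are under that threshold.

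Nicotine and vehicle at the 3-month start differed in the direction opposite to vehicle and air, with the same vehicle libraries in both. The nicotine libraries lay below all vehicle libraries for 47 genes and above for 2, Ndufs1 and Sdha, where 6.66% of all genes lay below and 12.2% above. Over all 23 libraries 0 passed in edgeR (0% of all genes) and in DESeq2 (0.0452%), and the median was -0.25 log2. An unadjusted p under 0.05 in edgeR was reached by 10 of the 83 (12%), near the 12.2% of all genes. In the 3-month libraries alone 59 passed, 57 lower and 2 higher, where 16.6% of all genes passed. Ndufs5, an accessory subunit of complex I, was at 46.2 ± 4.05 CPM in nicotine and 60.1 ± 3.63 CPM in vehicle (n = 4 each, -0.38 log2, adjusted p = 0.403 over all libraries). Ndufa6 was at 297 ± 33.7 CPM in nicotine and 388 ± 25.2 CPM in vehicle (-0.38, 0.404), and Uqcrb, of complex III, at 364 ± 33.8 CPM in nicotine and 435 ± 32.9 CPM in vehicle (-0.25, 0.405). Ndufs1 was at 821 ± 39.2 CPM in nicotine and 642 ± 54.2 CPM in vehicle (0.36, adjusted p = 0.45), Sdha at 1570 ± 12.1 CPM in nicotine and 1310 ± 85.3 CPM in vehicle (0.27, 0.46), and Uqcrc2 at 1080 ± 23.8 CPM in nicotine and 982 ± 62.8 CPM in vehicle (0.14, 0.601). With the shortest transcript offset the median was -0.07 and 8 of 83 passed in the 3-month libraries (10.7% of all genes), among them Ndufs1 and Sdha as higher. Of the genes past the threshold in the 3-month libraries without an offset and with each of the 3 length measures, Ndufs1 and Sdha remained as higher and 0 as lower. How many of all genes remained was not counted.

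The difference between starting ages was tested directly. For the nicotine effect against air, 3-week minus 3-month start, 0 of 83 passed (0.135% of all genes) and none had an unadjusted p under 0.05, with 0 by DESeq2 (1.31%). The smallest p belonged to Ndufc2 (0.22 log2, adjusted p = 0.697), Ndufb3 (0.29, 0.757) and Ndufa6 (0.29, 0.768) among positive differences, and to Uqcrc2 (-0.08, 0.941), Cox8a (-0.05, 0.97) and Sdhd (-0.03, 0.972) among negative ones. For the vehicle effect 0 passed (0% of all genes), 0 by DESeq2 (0.406%), with 3 at an unadjusted p under 0.05, namely Sdhd (-0.39 log2, adjusted p = 0.263), Atp5c1 (-0.31, 0.333) and Uqcrc2 (-0.43, 0.39). The share of all genes at an unadjusted p under 0.05 is not given here for either effect. Among positive differences Ndufs6 (0.49, 0.489), Ndufb7 (0.52, 0.49) and Uqcr10 (0.41, 0.497) had the smallest p. This depended on 3-week vehicle library 4, without which 20 of 83 passed, 14 higher and 6 lower, where 9.3% of all genes passed. Without 3-week vehicle library 1, 0 passed and the median was -0.08, against 0.14 with all libraries.

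Between the air groups, 3-month against 3-week start, 0 of 83 passed (0.00645% of all genes) and 0 by DESeq2 (0.271%), with 2 at an unadjusted p under 0.05. The share of all genes at that unadjusted p is not given here. The median was -0.10 log2, 77 of 83 were negative, and 10 were below without overlap, where 2.85% of all genes were. Ndufa4l2, a form known to rise in low oxygen, was at 12.1, 15.4, 12.8 and 11.8 CPM in 3-month air against 14.6, 19.8, 20.5 and 17.2 CPM in 3-week air (-0.47 ± 0.16, adjusted p = 0.315), and 3-week library 1 lay within the 3-month range. Cox6b2 averaged 0.679 ± 0.227 CPM in 3-month air and 1.15 ± 0.321 CPM in 3-week air (-0.75, adjusted p = 0.533), a low level in both groups. Cox5a was at 600 ± 25.2 CPM in 3-month air and 670 ± 39.0 CPM in 3-week air (-0.16, adjusted p = 0.692). Sdha (0.10), Ndufs1 (0.13) and Ndufc2 (0.05) had the smallest p among the 6 positive changes, with adjusted p = 0.877 to 0.907. Without 3-week air libraries 1 and 5, Ndufa4l2 was the 1 of 83 genes that passed (-0.64, adjusted p = 0.0385), where 5.37% of all genes did; this leaves out library 1, the one that overlapped.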

How the data were processed

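RNA of the left ventricle was sequenced in 23 libraries. Reads were trimmed, aligned and counted by the submitters with Trimmomatic 0.36, STAR 2.5.2b and featureCounts of Subread 1.5.2, with DESeq2 also named, per the submitters' processing notes. No source used here names the genome build, annotation or strandedness of the counting. The authors deposited raw counts per gene. They also deposited tables of nicotine against air with a log2 fold change and p-values, used only where named. Their signal columns, gene counts divided by a size factor by the authors, served only to match columns to libraries and check the sign.

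Subunit genes and companion lists were chosen with earlier results of these data known. Counts were scaled by TMM, filtered (minimum count 10) and fitted with edgeR 4.0.16 in R 4.3.3 (quasi-likelihood test, robust, 6 groups, 17 residual degrees of freedom), with Benjamini-Hochberg adjustment over 15500 genes and a threshold of 0.05. Every adjusted p is from this test unless DESeq2 1.42.0, the authors' table or another fit is named. In another fit the adjustment was over the genes tested in that fit. CPM are counts scaled to library size with TMM factors (totals alone for marker sums), and values with ± are SD for levels and SE for changes. Named genes were the 10 with the smallest p past the threshold in each direction of a comparison (3 where none passed), up to 4 per companion list and direction, and 23 core subunits and tissue forms followed throughout; 1 companion gene is not reported here. Uqcr11, further companion genes and those named for level, length or setting were added after their values were seen. Alternatives were RLE scaling, no filter, DESeq2, the compared groups alone, a replicate block, an offset for exon length, no mitochondrially encoded genes and leaving out libraries. Fits of 3-month libraries alone and offsets for transcript length (GENCODE vM21) were added after seeing the data. The fits were tested on simulated counts. Deviations of same-numbered libraries correlated at -0.404 to 0.417, with 6 of 16 pairs above 0.1. This does not settle whether the numbers pair the libraries. Promoters are from RefSeq (GRCm38.p6).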

Additional observations from a re-analysis of the deposited data

Results flagged for a closer look

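In 9 of the 255 sets of 4 libraries checked, 1 library lay far from the other 3 (its gap to the nearest, over the whole range, exceeded 0.829). Chance flags about 1 set in 20. In 3-month nicotine library 3, Atp5k was low at 269 CPM (289 to 293 in the others) and Cox4i2 low at 8.3 CPM (higher, up to 10.2, in the others). In 3-month vehicle library 1, Ndufs1 was high at 723 CPM (609 to 618). In 3-month air, Atp5s was high in library 2 at 20.5 CPM (19.4 to 19.5) and Cox7a2l low in library 5 at 126 CPM (139 to 141). In 3-week air library 5, Atp5c1 was high at 934 CPM (814 to 825) and Atp5g1 at 1340 CPM (1210 to 1230). In 3-week air library 1, Cox6a2 was low at 811 CPM (1010 to 1050), and the 83 genes together took a low 5.05% of counts (5.87 to 5.95%).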

How the results depend on the processing

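Results are the number of subunit genes past the threshold and their median log2 fold change in 9 comparisons. For 3-week vehicle against air, 39 passed (median 0.379). The number was 18 without a filter and with the shortest or longest transcript offset, where 4.19, 15.9 and 16.1% of all genes passed. It was 0 with the compared groups only, with a replicate block and without air libraries 1 and 5, and in each of these fits 0% of all genes passed. The labels do not say whether the numbers pair the libraries. Leaving out 1 library gave 0 to 66. The median was 0.177 to 0.557 with 1 library left out, 0.066 with the longest transcript offset, and reversed to -0.108 without vehicle libraries 1 and 2. For 3-week nicotine against vehicle, 0 passed; DESeq2 gave 2, leaving out 1 library 0 to 60 (medians -0.454 to -0.043), and without vehicle libraries 1 and 2 the median was 0.238.

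For 3-month vehicle against air, 0 passed over all libraries. The number was 55 in the compared groups only, 56 in the 3-month libraries only, and there 25, 14 and 12 with the exon, shortest and longest transcript offsets, where 18.4, 18.7, 14.6, 13.6 and 12.3% of all genes passed. Medians with these offsets were 0.095, 0.079 and 0.031 over all libraries and 0.092, 0.075 and 0.027 in the 3-month libraries, against 0.239. For 3-month nicotine against vehicle the numbers in the same order were 55, 59, 17, 8 and 8 (15.8, 16.6, 11.9, 10.7 and 9.62% of all genes), so 8 of 83 is near the share of all genes, and the medians -0.072, -0.071 and -0.02, and -0.075, -0.073 and -0.021, against -0.249. For the vehicle effect between starting ages, leaving out 1 library gave 0 to 20 genes (20 without 3-week vehicle 4, with 9.3% of all genes) and medians of -0.083 to 0.324, and leaving out 3-week vehicle libraries 1 and 2 a median of -0.344. For air by starting age, 1 gene passed without 3-week air libraries 1 and 5. The replicate block could not be fitted to that comparison and changed no call but those named. The cause of these changes was not tested. Smaller fits also hold fewer libraries, and the part of this was not tested either. Both nicotine against air comparisons had 0 genes under every alternative run, with medians of 0.064 to 0.232 (3-week) and -0.024 to 0.048 (3-month) when 1 library was left out.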
